A study of Mus musculus with 18 samples.

Results

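The genes described here are 9 small leucine-rich proteoglycans, Dcn, Bgn, Aspn, Lum, Fmod, Prelp, Omd, Ogn and Podn, together with Dpt, which codes for dermatopontin. They were taken by name, with no threshold on their levels, and they are 10 of 35727 gene identifiers in the count table. Earlier results of these data were known when they were chosen, so counts of these genes are descriptions. All 10 passed the filter on low counts and were among 14864 genes tested. The series holds bulk mRNA profiles of 18 mouse libraries, 3 for each of 6 groups. Each organ, heart or lung, gave fibroblasts, labelled as controls, iECs and native endothelial cells (ECs). All groups are labelled day 7 and EGM2 medium, a medium for growing endothelial cells. The name iEC is used in the field for cells driven towards an endothelial state from another lineage. The iEC libraries are also titled SEG, which the labels do not explain, and the starting cell and the inducing factors are not given in the sources used here. Strain, age and the number of animals are not given there either. The study compared the groups to follow how organ-specific endothelial identity is acquired. The labels do not say whether the 3 replicates of a group are separate cultures or animals. The p-values therefore describe the spread among these libraries only, and that spread may be technical. In bulk RNA, fewer cells of a type and less RNA per cell cannot be told apart.

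Small leucine-rich proteoglycans are secreted matrix proteins built from leucine-rich repeats that bind fibrillar collagens and steer how collagen fibrils form and space themselves. Many carry chondroitin or dermatan sulfate chains (decorin, biglycan) or keratan sulfate chains (lumican, fibromodulin, osteomodulin), and several bind growth factors such as TGF-beta or signal through cell surface receptors. Dermatopontin is not a member of the family: it is a small tyrosine-rich matrix protein that binds decorin and collagen. In heart and lung these genes are best known from fibroblasts and other stromal cells, and they are commonly read as matrix genes of the mesenchyme.

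The family is partly arranged in clusters on the mouse genome (GRCm38, GENCODE M21). Dcn lies at chromosome 10:97479609-97518143 and Lum at 10:97565128-97572703, both on the plus strand and 47.0 kb apart. Aspn (13:49544443-49567565), Omd (13:49582462-49592822) and Ogn (13:49608046-49624501) follow each other on the plus strand of chromosome 13 with gaps of 14.9 and 15.2 kb. Prelp (1:133910304-133921414, minus strand) and Fmod (1:134037254-134048277, plus strand) are neighbours 115.8 kb apart with no protein-coding gene between them. Optc, a small leucine-rich proteoglycan outside the 10 genes, lies nearer to Prelp, 2.3 kb away on its other side and on the same strand. Podn (4:108014791-108096445, minus strand), Bgn (X:73483602-73495933, plus strand) and Dpt (1:164796644-164824266, plus strand) have no other member of the family next to them. Sequences of the 250 bases before the RefSeq start (GRCm38.p6) were held for 8 of the 10 genes, Dcn and Lum being the exceptions. The windows of the chromosome 1 neighbours, whose levels across libraries were the closest pair among the 10 genes, and of the chromosome 13 neighbours, of which Aspn and Omd were the next closest pair, are printed 5′ to 3′ on the strand of the gene, with matches to searched motifs in capitals. Their coordinates are chr1:133921402-133921651 (minus strand) for Prelp, chr1:134037004-134037253 for Fmod, chr13:49544193-49544442 for Aspn, chr13:49582212-49582461 for Omd and chr13:49607765-49608014 for Ogn.
Prelp: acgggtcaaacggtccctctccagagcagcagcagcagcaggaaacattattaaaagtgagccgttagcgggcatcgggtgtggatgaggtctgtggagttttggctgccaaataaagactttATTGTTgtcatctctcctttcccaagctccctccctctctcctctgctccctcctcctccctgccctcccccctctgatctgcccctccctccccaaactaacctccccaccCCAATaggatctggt
Fmod: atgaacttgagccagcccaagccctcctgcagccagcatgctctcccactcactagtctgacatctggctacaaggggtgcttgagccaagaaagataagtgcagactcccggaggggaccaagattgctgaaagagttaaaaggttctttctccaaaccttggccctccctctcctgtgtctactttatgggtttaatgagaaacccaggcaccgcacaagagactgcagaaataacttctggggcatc
Aspn: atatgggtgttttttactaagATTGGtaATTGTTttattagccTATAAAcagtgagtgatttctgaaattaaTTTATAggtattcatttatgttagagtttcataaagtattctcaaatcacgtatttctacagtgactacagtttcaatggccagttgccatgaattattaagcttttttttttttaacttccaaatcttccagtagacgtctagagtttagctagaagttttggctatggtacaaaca
Omd: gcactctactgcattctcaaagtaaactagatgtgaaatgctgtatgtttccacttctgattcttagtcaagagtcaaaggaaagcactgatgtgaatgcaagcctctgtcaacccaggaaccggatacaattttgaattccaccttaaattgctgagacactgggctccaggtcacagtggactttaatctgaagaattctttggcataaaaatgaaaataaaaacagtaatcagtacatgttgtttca
Ogn: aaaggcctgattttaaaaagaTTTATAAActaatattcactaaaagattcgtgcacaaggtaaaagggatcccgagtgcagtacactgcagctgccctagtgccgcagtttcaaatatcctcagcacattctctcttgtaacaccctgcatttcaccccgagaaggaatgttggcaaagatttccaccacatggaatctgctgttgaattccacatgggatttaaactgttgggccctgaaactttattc
The motifs, searched on both strands, were a TATA box core (TATAAA, in 12.4% of 32851 mouse promoter windows of this length), an AP-1 site (TGANTCA, 6.75%), a long ETS motif (ACAGGAA, 7.20%), a SOX core (AACAAT, 9.42%), a CCAAT box (CCAAT, 33.9%) and a GC box (GGGCGG, 32.7%). Prelp held a SOX core and a CCAAT box, read as ATTGTT and CCAAT, and its neighbour Fmod held no match. Aspn held a CCAAT box and a SOX core, read as ATTGG and ATTGTT, and a TATA box core on each strand. Omd held no match, and in Ogn the capitals mark a TATA box core on both strands that overlap. A match of letters is a description of the window and not a site.

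Library totals ran from 17747632 to 23775372 counts. Levels are given as CPM, the counts scaled to a common library total, and log2 changes as edgeR fitted them after TMM scaling, with the standard error (SE). The labels were set against marker genes. Summed over 12 endothelial markers, the level ran from 38.4 to 48.5 CPM in lung fibroblasts and from 268 to 304 in heart fibroblasts. It ran from 1615 to 1705 in heart iECs, 1372 to 1469 in lung iECs, 1928 to 2050 in heart ECs and 3533 to 3872 in lung ECs. The sum of 12 fibroblast markers ran from 24565 to 26104 CPM in heart fibroblasts, 18238 to 19703 in heart iECs and 17726 to 18343 in heart ECs. In lung it ran from 34793 to 42324 in fibroblasts, 12091 to 16727 in iECs and 5430 to 7468 in ECs. All 12 endothelial and all 12 fibroblast markers had counts in every library, so the libraries labelled EC also hold fibroblast transcripts. Against heart fibroblasts, 9 of the 12 endothelial markers were called higher and 1 lower in heart iECs (edgeR, adjusted p under 0.05). Of all genes tested, 26% were called higher there and 24.6% lower. Against lung fibroblasts, 11 of the 12 were called higher and 0 lower in lung iECs, beside 25.9% and 24.7% of all genes. Cldn5, a tight junction protein of endothelium, is named as an exception, since most of the 12 were called higher in the iECs. Its level was 0.989 ± 0.0844 CPM (SD, n = 3) in heart iECs and 0.459 ± 0.388 in lung iECs. It stood at 2.91 ± 0.137 CPM in heart fibroblasts, 0.444 ± 0.146 in lung fibroblasts, 26.7 ± 2.44 in heart ECs and 58.6 ± 12.2 in lung ECs. Macrophage markers (13 genes) ran from 9372 to 10449 CPM in lung ECs against 208 to 1466 in the fibroblast groups. The libraries farthest from their group mates were lung fibroblast 1, lung iEC 3 and lung EC 3, and calls that changed when they were left out, singly or together, are given beside the result.

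Together the 10 genes held the most of the library in heart fibroblasts and the least in the lung iECs and lung ECs. Their share of all counts was 1.55% ± 0.0470 (SD, n = 3) in heart fibroblasts, 0.536% ± 0.0242 in heart iECs and 0.960% ± 0.0306 in heart ECs. In lung it was 0.785% ± 0.0667 in fibroblasts, 0.265% ± 0.0303 in iECs and 0.246% ± 0.0106 in ECs. Biglycan alone made up between 64.8% (heart ECs) and 90.2% (lung iECs) of that share. Without Bgn, the remaining 9 genes held 0.450% ± 0.0271 of the counts of heart fibroblasts and 0.0528% ± 0.00269 of those of heart iECs.

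**Figure D1:**
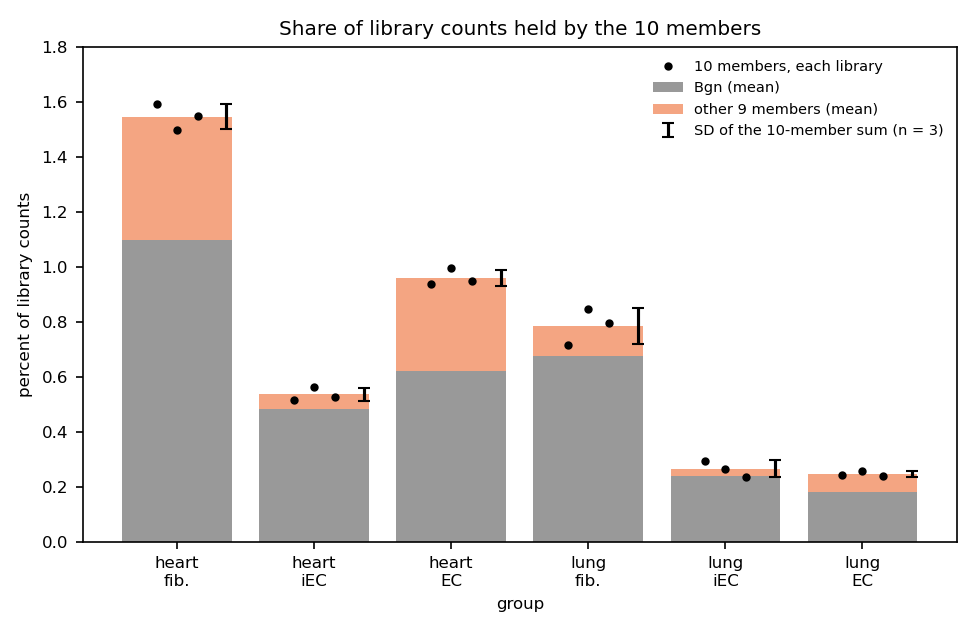
Share of library counts, in percent (y axis), held by the 10 genes in each group (x axis); grey is the mean of Bgn, orange the mean of the other 9, points are the 3 libraries and the bar is the SD of the 10-gene sum. Heart fibroblasts stand highest at 1.55%, and the lung iECs and lung ECs lowest at 0.265% and 0.246%, with most of each column held by Bgn.

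Levels of different genes were compared only per kilobase of exon. On that scale, CPM per kilobase, Bgn stood first in all 6 groups, from 299 in lung ECs to 1798 in heart fibroblasts. Heart fibroblasts then had Prelp at 453, Dcn at 332, Dpt at 176 and Lum at 129.8 CPM per kilobase. In lung fibroblasts Prelp (95.0) and Dcn (82.8) followed Bgn, and their order turned when the longest transcript was used as the length. Ogn (42.3) and Podn (33.4) came next, while Lum (5.73) and Dpt (3.08) were low. In lung ECs, Dcn (106) followed Bgn, and Prelp came next at 3.25 CPM per kilobase. Omd was the lowest of the 10 in 5 of the groups, and Dpt in lung ECs.

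**Figure D2:**
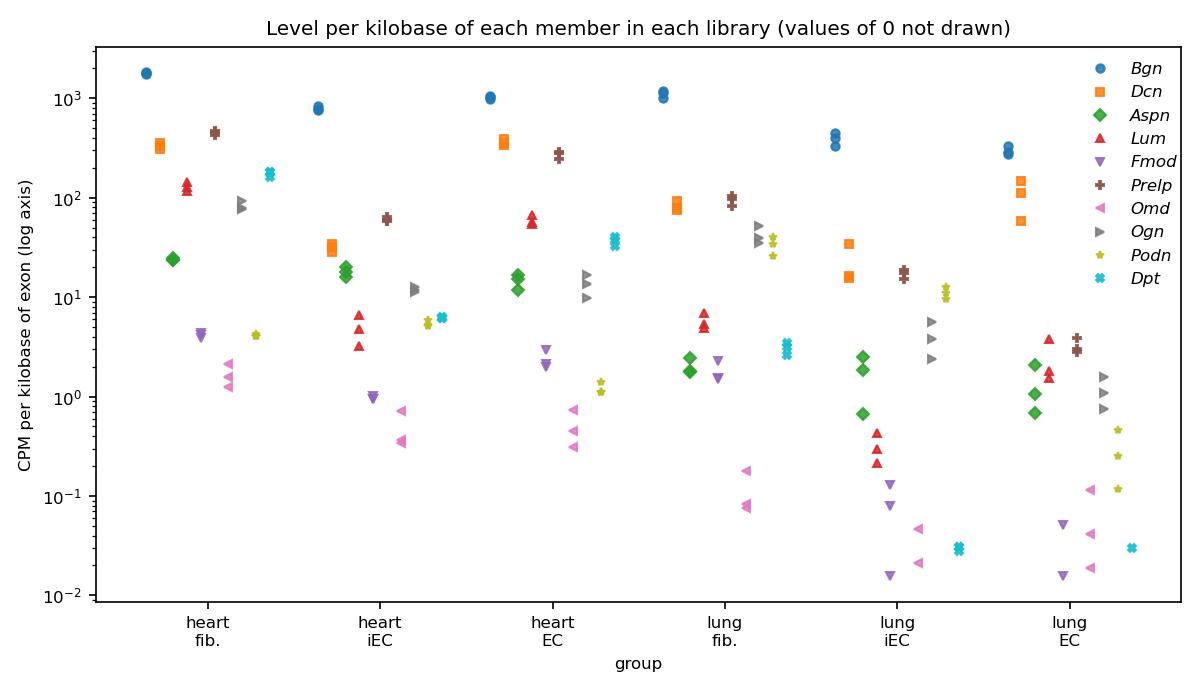
CPM per kilobase of exon (y axis, log scale) of each gene in each library, by group (x axis); colours and shapes mark genes, and libraries with no count are not drawn. Bgn is the top point in all 6 groups, and Dpt falls from the fourth place in heart fibroblasts to the last in lung ECs.

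Biglycan (Bgn) and decorin (Dcn) are close relatives that carry chondroitin or dermatan sulfate, and biglycan released from matrix also signals through Toll-like receptors. Bgn stood at 11166, 10768 and 10970 CPM in the 3 heart fibroblast libraries, 4664, 5083 and 4739 in heart iECs and 5942, 6497 and 6232 in heart ECs. In lung it stood at 6159, 7206 and 6869 CPM in fibroblasts, 2727, 2428 and 2040 in iECs and 1761, 1692 and 2009 in ECs. The order was heart fibroblasts, lung fibroblasts, heart ECs, heart iECs, lung iECs and lung ECs, and only the ranges of lung fibroblasts and heart ECs overlapped. Of the 10 genes, Bgn had the narrowest range of group means as a ratio of highest to lowest.

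Decorin binds collagen fibrils and TGF-beta. Dcn stood at 2076, 1801 and 1941 CPM in heart fibroblasts, 166, 202 and 187 in heart iECs and 2282, 2066 and 1962 in heart ECs. The heart ECs and heart fibroblasts overlapped, and the heart iECs lay below both. In lung, Dcn stood at 462, 545 and 443 CPM in fibroblasts, 96.3, 90.6 and 201 in iECs and 650.2, 867 and 338 in ECs. The lung ECs overlapped with the lung fibroblasts, and the lung iECs with the heart iECs. Lung iEC 3 was the highest of its group and lung EC 3 the lowest of its group. Lung EC 3 also had the highest mesothelial marker sum of its group, 405 CPM over 9 genes against a lowest value of 244. It was highest as well for fibroblast markers (7468 CPM against a lowest 5430) and smooth muscle and pericyte markers (2345 against a lowest 1399). Its macrophage marker sum was the lowest of the group, 9372 CPM against a highest 10449. The part of such cells in the Dcn level was not tested.

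Asporin (Aspn), a decorin relative that binds collagen and calcium, was separated by organ. It stood at 58.5, 55.9 and 55.2 CPM in heart fibroblasts, 42.6, 47.7 and 37.5 in heart iECs and 27.6, 39.7 and 36.2 in heart ECs. The lung libraries stood at 4.17, 5.73 and 4.29 CPM in fibroblasts, 4.34, 5.92 and 1.57 in iECs and 2.51, 1.60 and 4.91 in ECs. Every heart library lay above every lung library, while the 3 lung groups overlapped with each other and the heart iECs overlapped with the heart ECs.

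Lumican (Lum), fibromodulin (Fmod), PRELP and osteomodulin (Omd) form another class of the family. Lumican and fibromodulin bind collagen fibrils at shared sites, and PRELP ties collagen to basement membrane components. Lum stood at 354, 288 and 311 CPM in heart fibroblasts, 7.93, 11.8 and 16.3 in heart iECs and 139, 165 and 133 in heart ECs. In lung it stood at 12, 16.9 and 13.1 CPM in fibroblasts, 0.733, 0.525 and 1.05 in iECs and 9.22, 3.79 and 4.45 in ECs. The heart iECs overlapped with the lung fibroblasts and with the lung ECs, and the lung iECs lay below all other groups.

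Prelp stood at 1679, 1556 and 1673 CPM in heart fibroblasts, 212, 214 and 233 in heart iECs and 879, 1045 and 1008 in heart ECs. In lung it stood at 298, 378 and 354 CPM in fibroblasts, 67.5, 62.7 and 54.6 in iECs and 10.1, 14.1 and 10.9 in ECs. No ranges of neighbouring groups overlapped, and the heart ECs were the second highest of the 6 groups while the lung ECs were the lowest. An antisense gene overlaps the exons of Prelp and shares 9.0% of its stretches of 31 bases; it was not analysed here, and whether counting used the strand is not given in the sources used here.

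Fmod, the neighbour of Prelp, stood at 14.3, 13.7 and 12.7 CPM in heart fibroblasts, 3.38, 3.12 and 3.10 in heart iECs and 6.49, 9.78 and 7.01 in heart ECs. Lung fibroblasts had 4.96, 7.56 and 5.09 CPM, while lung iECs had 5, 9 and 1 counts and lung ECs 1, 4 and 0 counts. The lung iECs and lung ECs overlapped and lay below every other group, and the heart ECs overlapped with the lung fibroblasts. Osteomodulin, named for bone, was scarce: Omd stood at 4.78, 2.77 and 3.50 CPM in heart fibroblasts, 0.766, 1.60 and 0.829 in heart iECs and 1.02, 1.66 and 0.701 in heart ECs. Lung fibroblasts had 3, 4 and 9 counts of Omd, lung iECs 2, 1 and 0 and lung ECs 5, 1 and 2. The 3 lung groups lay below every heart group, and the lung ECs overlapped with both other lung groups. Omd shares 119 stretches of 31 bases with Vamp3, which had 1485 to 3262 counts per library, so its few lung counts are uncertain.

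Osteoglycin (Ogn), also called mimecan, regulates collagen fibril growth and belongs to a further class. Ogn stood at 238, 200.2 and 198 CPM in heart fibroblasts, 28.7, 30.6 and 32.4 in heart iECs and 25.3, 43.1 and 34.8 in heart ECs. In lung it stood at 90.4, 133 and 102 CPM in fibroblasts, 9.68, 14.5 and 6.12 in iECs and 2.77, 1.93 and 4.03 in ECs. Both fibroblast groups lay above all 4 other groups, and only heart iECs and heart ECs overlapped.

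Podocan (Podn), a collagen-binding member first described in the kidney, stood highest in lung. Its 3 libraries per group gave 109.7, 171 and 147 CPM in lung fibroblasts, 47.0, 54.3 and 41.3 in lung iECs and 1.08, 0.505 and 1.95 in lung ECs. In heart it stood at 17.4, 17.2 and 18 CPM in fibroblasts, 24.9, 22.4 and 21.7 in iECs and 4.71, 5.98 and 4.69 in ECs. Lung fibroblasts were the highest group and lung ECs the lowest, both iEC groups lay above the heart fibroblasts, and no neighbouring groups in the order overlapped.

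Dermatopontin had the widest range of group means as a ratio of highest to lowest, the lowest resting on 1 count in lung ECs. Dpt stood at 315, 280.04 and 316 CPM in heart fibroblasts, 11.0, 10.6 and 10.7 in heart iECs and 55.9, 69.6 and 65.1 in heart ECs. Lung fibroblasts had 5.47, 5.92 and 4.56 CPM. Lung iECs had 1, 1 and 1 counts and lung ECs 1, 0 and 0 counts, at or under the floor of 3 counts over the group. Dpt in lung iECs and lung ECs overlapped, and all other groups were apart.

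**Figure D3:**
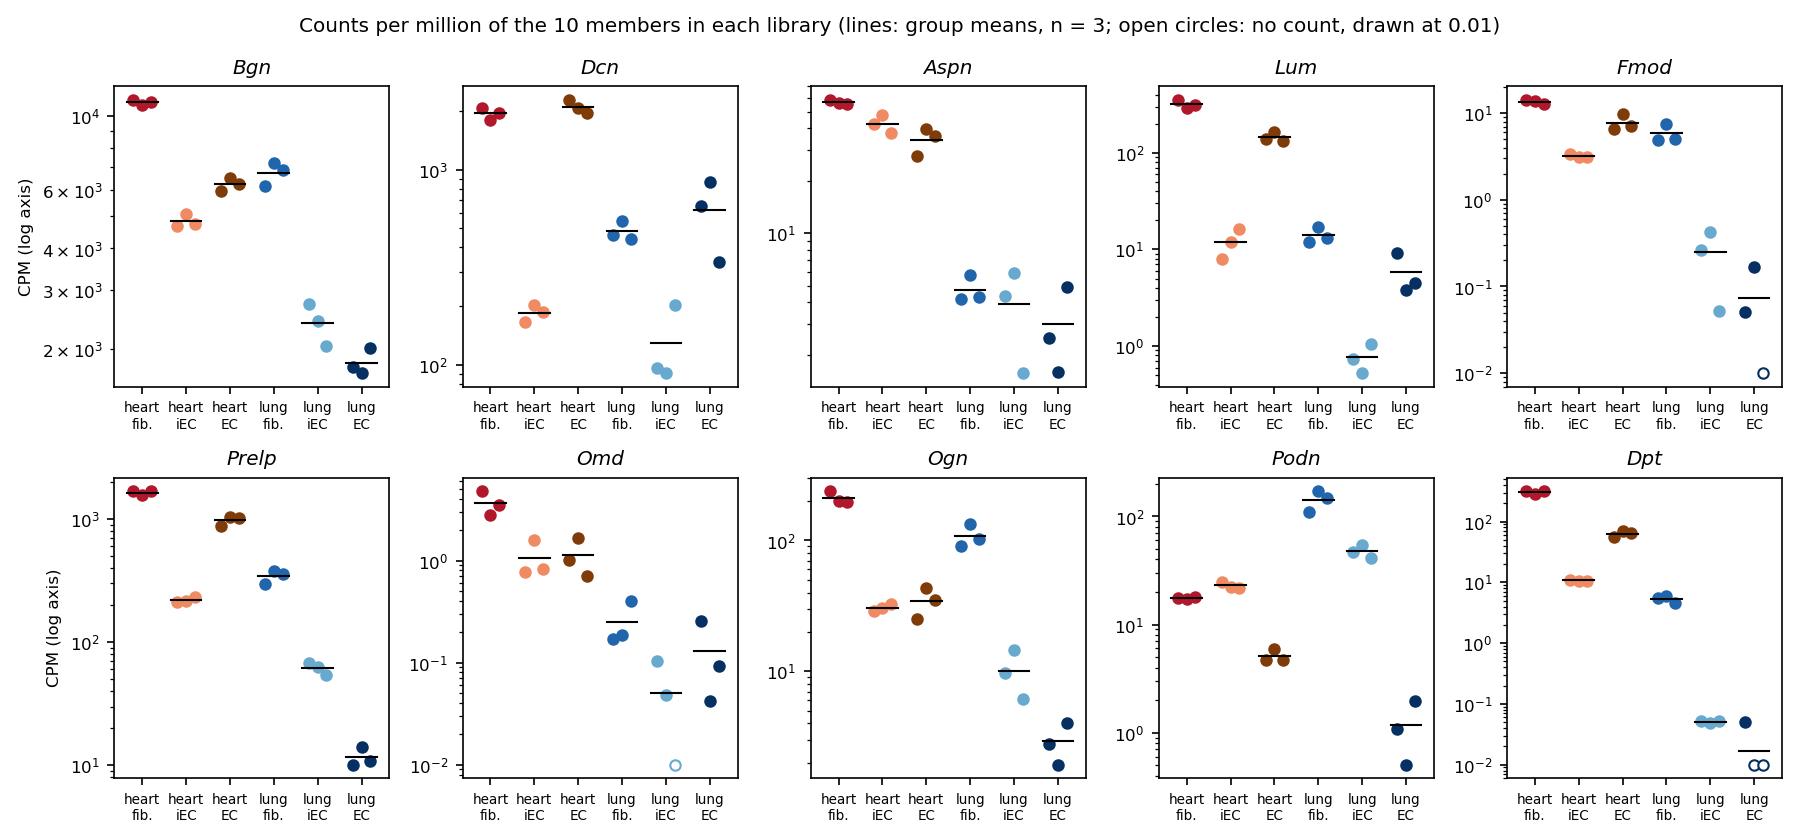
CPM (y axis, log scale, a separate scale for each gene) of the 10 genes in each of the 18 libraries by group (x axis); points are libraries, lines are group means and open circles are libraries with no count, drawn at 0.01. Heart fibroblasts are the highest group for 8 genes, heart ECs for Dcn and lung fibroblasts for Podn.

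In heart, iECs stood below fibroblasts for most of these genes. The iECs were lower for 8 of 10 genes and higher for 0, where 24.6% of all genes tested were called lower and 26% higher (edgeR's quasi-likelihood test, Benjamini-Hochberg adjusted p under 0.05). The median log2 change of the 10 genes was -2.62, beside 0.02 over all genes tested. Dpt was 32.1-fold lower (log2 change -5.01 ± 0.11, SE, adjusted p = 7.14e-16), and Lum was 30.0-fold lower (-4.91 ± 0.31). Dcn changed by -3.57 ± 0.36, Prelp by -3.08 ± 0.12, Ogn by -2.98 ± 0.26 and Fmod by -2.27 ± 0.27 on the log2 scale. Bgn was 2.58-fold lower (-1.37 ± 0.09, adjusted p = 4.85e-10). Aspn (-0.59 ± 0.29, adjusted p = 0.0994) and Podn (0.20 ± 0.19, adjusted p = 0.399) did not pass the test. Fitted on the 6 heart libraries of this comparison alone, both passed, with log2 changes of -0.60 for Aspn (adjusted p = 1.3e-07) and 0.20 for Podn (adjusted p = 0.0472). Aspn also passed without lung EC 3 (adjusted p = 0.0440), lung iEC 3 (0.0250) or the 3 lung libraries farthest from their group mates (0.00113), none of which is a heart library. Markers of other cells moved as well. The sum of 9 mural markers, genes of smooth muscle cells and pericytes, ran from 274 to 311 CPM in heart fibroblasts and from 1395 to 1586 in heart iECs, with 6 called higher and 2 lower. Cnn1 was at 0 in at least 1 heart fibroblast library. Of 9 mesothelial markers 7 were called lower and 2 higher in heart iECs, where Bnc1 and Muc16 were at 0 in at least 1 library, while their sum ran from 52.7 to 71.1 CPM in fibroblasts and from 108 to 122 in iECs. The part of these cells in the values was not tested.

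In lung, the iECs were lower than fibroblasts for 9 of 10 genes and higher for 0, where 24.7% of all genes were called lower and 25.9% higher. The median log2 change was -2.50, beside 0.00 over all genes. Fmod was 25.5-fold lower (-4.67 ± 0.38, adjusted p = 1.01e-08), Lum 20.5-fold lower (-4.36 ± 0.42) and Ogn 12-fold lower (-3.59 ± 0.28). Prelp changed by -2.64 ± 0.12, Dcn by -2.06 ± 0.34, Podn by -1.75 ± 0.19 and Bgn by -1.66 ± 0.09 on the log2 scale. For Dpt, 326 counts in lung fibroblasts stood against 3 in lung iECs, a ratio of 104 in CPM with an exact 95% counting interval of 35.4 to 509. Omd passed as well (log2 change -2.36 ± 0.85, adjusted p = 0.0267) on 16 counts against 3, a ratio of 5.12 with a counting interval of 1.47 to 27.4. That call was lost without lung fibroblast 3 (adjusted p = 0.131), lung iEC 2 (0.0689), lung iEC 3 (0.0919) or the 3 libraries farthest from their group mates (0.0780). Counting intervals cover counting error only. Aspn gave -0.42 ± 0.37 (adjusted p = 0.374) and did not pass. Without lung iEC 2 the Fmod change was -5.33, and without lung iEC 1 that of Omd was -3.23. Mural markers ran from 892 to 1225 CPM in lung fibroblasts and from 3475 to 4344 in lung iECs, with 6 of 9 called higher and 3 lower. Macrophage markers ran from 1123 to 1466 and from 3100 to 4439 CPM, with 13 of 13 called higher. Mesothelial markers ran from 299.8 to 326 and from 49.3 to 69.7 CPM, with 7 of 9 called lower and 0 higher, and Muc16 was at 0 in at least 1 lung iEC library. Their part in the lung values was not tested.

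**Figure D4:**
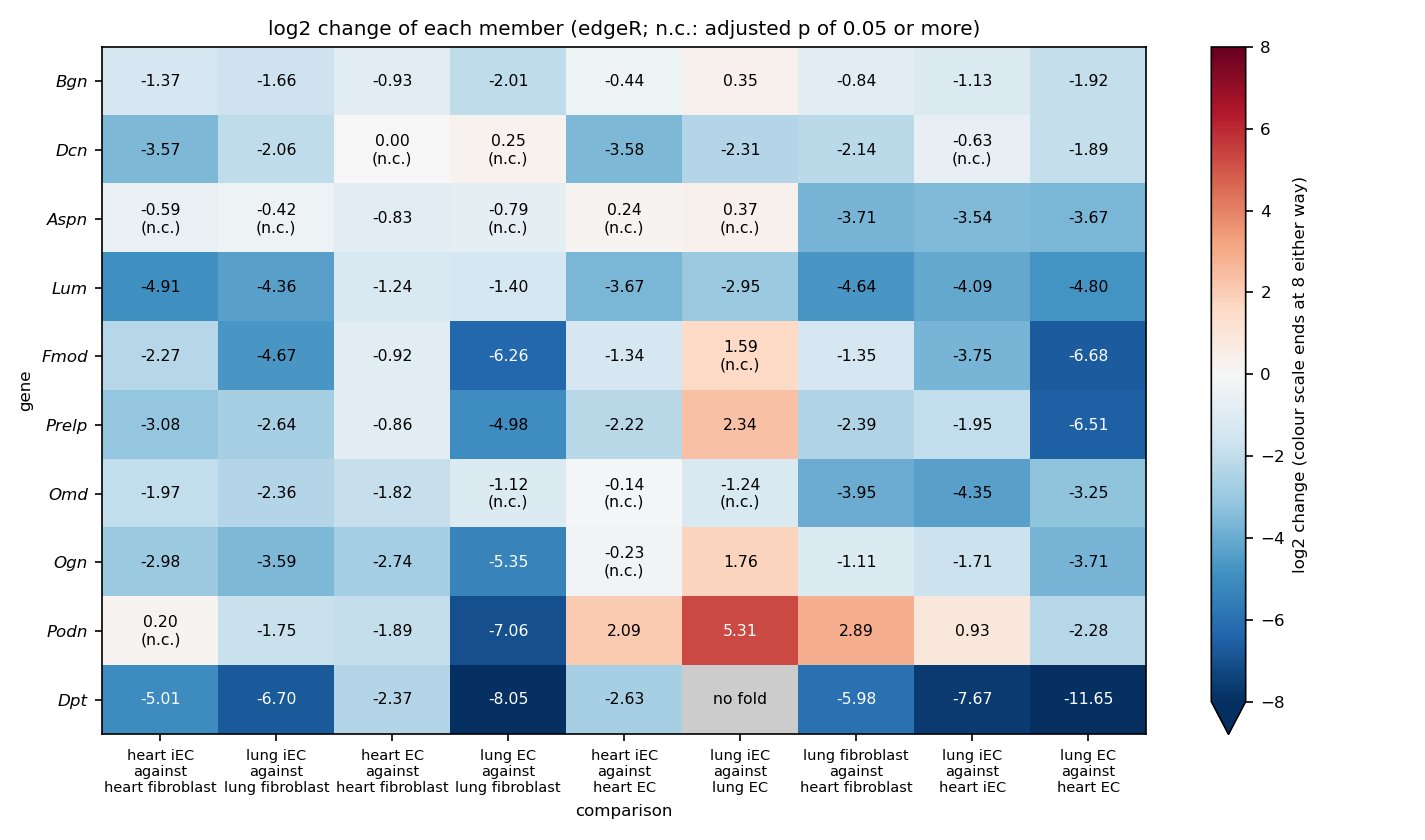
Fitted log2 change of each gene (rows) in 9 comparisons between groups (columns), by colour and printed value; n.c. marks values whose adjusted p was 0.05 or more, and the values of Dpt in lung iECs and lung ECs rest on 3 counts and 1 count, so the cell between those groups is left grey. Blue cells, lower in the group named first, fill most of the 4 columns of iECs or ECs against fibroblasts, where no value above 0 was called, while the column of lung iECs against lung ECs holds called red cells for Podn, Prelp, Ogn and Bgn.

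Native ECs were also set against the fibroblasts of their organ, which are the same control libraries as in the iEC comparisons. Heart ECs were lower for 9 of 10 genes and higher for 0, where 23.3% of all genes were called lower and 24.2% higher. The median log2 change was -1.09, beside 0.00 over all genes. Ogn changed by -2.74 ± 0.26, Dpt by -2.37 ± 0.10, Podn by -1.89 ± 0.22 and Omd by -1.82 ± 0.45 on the log2 scale. Lum (-1.24 ± 0.26), Bgn (-0.93 ± 0.09), Fmod (-0.92 ± 0.25) and Prelp (-0.86 ± 0.12) were lower by less. Dcn gave 0.00 ± 0.33 (adjusted p = 0.998) and did not pass. Of 12 fibroblast markers, 9 were called lower in heart ECs and 0 higher. The sum of the 12 ran from 17726 to 18343 CPM in heart ECs against 24565 to 26104 in heart fibroblasts. Mesothelial markers stood at 416 to 606 CPM in heart ECs against 52.7 to 71.1 in heart fibroblasts. The part of either cell type in the Dcn level was not tested. The call for Aspn (-0.83 ± 0.29, adjusted p = 0.0288) was lost with no filter on low counts (0.0594) and without heart fibroblast 1, 2 or 3 or heart EC 1 or 3, where adjusted p ran up to 0.110.

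Lung ECs were lower than lung fibroblasts for 7 of 10 genes and higher for 0, where 28.7% of all genes were called lower and 29.3% higher. The median log2 change was -3.50, beside 0.00 over all genes. Podn was 133-fold lower (-7.06 ± 0.26, adjusted p = 1.53e-12), Ogn 40.7-fold lower (-5.35 ± 0.32) and Prelp 31.6-fold lower (-4.98 ± 0.14). Bgn changed by -2.01 ± 0.09 and Lum by -1.40 ± 0.31 on the log2 scale. Fmod changed by -6.26 ± 0.45 on 5 counts in lung ECs against 364, a ratio of 76.6 with a counting interval of 32.5 to 237, and by -7.72 without lung EC 2, which held 4 of the 5. Dpt had 326 counts in lung fibroblasts and 1 count in lung ECs, a ratio of 343 with a counting interval of 61.2 to 13600. Dcn again did not pass (0.25 ± 0.33, adjusted p = 0.535). Without lung fibroblast 1, lung iEC 3 and lung EC 3 it was higher in lung ECs, by 0.53 on the log2 scale (adjusted p = 0.0139). Omd (-1.12 ± 0.71) and Aspn (-0.79 ± 0.38) did not pass. Aspn did pass without lung EC 3 (-1.31, adjusted p = 0.0112) or lung iEC 3 (-0.79, adjusted p = 0.0270), without the 3 libraries together (-1.39, adjusted p = 0.000731) and with DESeq2 (-0.76, adjusted p = 0.0470). Without the 3 libraries the Podn change was -7.78. Macrophage markers were called higher in lung ECs for 13 of 13 genes, and their part in these values was not tested.

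The iECs were then set against the native ECs of the same organ. Heart iECs were lower than heart ECs for 6 of 10 genes and higher for 1, where 24.4% of all genes were called lower and 24.5% higher. Lum (-3.67 ± 0.30) and Dcn (-3.58 ± 0.36, adjusted p = 2.22e-06) were 12.7-fold and 11.9-fold lower in the iECs. Dpt (-2.63 ± 0.10), Prelp (-2.22 ± 0.12), Fmod (-1.34 ± 0.27) and Bgn (-0.44 ± 0.09) were lower too. Podn was 4.27-fold higher in heart iECs (2.09 ± 0.21, adjusted p = 5.92e-07). Ogn (-0.23 ± 0.25), Omd (-0.14 ± 0.47) and Aspn (0.24 ± 0.29) did not pass. The median of the 10 genes was -0.89, beside 0.01 over all genes. Mesothelial markers ran from 108 to 122 CPM in heart iECs against 416 to 606 in heart ECs, with 7 of 9 called lower and 1 higher. Fibroblast markers ran from 18238 to 19703 CPM against 17726 to 18343, with 3 of 12 called lower and 3 higher. The part of either cell type in these heart values was not tested.

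Lung iECs were higher than lung ECs for 4 of 10 genes and lower for 2, where 22.2% of all genes were called higher and 23% lower. Podn was 39.6-fold higher (5.31 ± 0.26, adjusted p = 8.58e-11), Prelp 5.05-fold higher (2.34 ± 0.13) and Ogn 3.39-fold higher (1.76 ± 0.32). Bgn was 1.28-fold higher (0.35 ± 0.09, adjusted p = 0.00336). Lum (-2.95 ± 0.45) and Dcn (-2.31 ± 0.35) were lower, as in heart. Fmod (1.59 ± 0.74, adjusted p = 0.0894) did not pass, and did without lung EC 2 (3.05, adjusted p = 0.0229) or lung iEC 3 (2.04, adjusted p = 0.0224). Aspn (0.37 ± 0.39) did not pass with all libraries and did without the 3 libraries farthest from their group mates (1.26, adjusted p = 0.00215). Omd had 3 counts in lung iECs and 8 in lung ECs, a ratio of 2.43 with a counting interval of 0.584 to 14.2. Dpt had 3 counts against 1, at or under the floor in both, so no fold is given. Without those 3 libraries Podn was at 5.95 and Dcn at -3.11. The median was 0.86, beside -0.01 over all genes, and it is the mean of the values of Aspn and Dpt. Mural markers ran from 3475 to 4344 CPM in lung iECs against 1399 to 2345 in lung ECs, and from 1395 to 1586 in heart iECs against 443 to 591 in heart ECs. Macrophage markers were called lower in lung iECs for 11 of 13 genes and higher for 0. Their part in these values was not tested.

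Between organs, the heart groups were higher for nearly all of these genes. Lung fibroblasts were lower than heart fibroblasts for 9 of 10 genes and higher for 1, where 23.9% of all genes were called lower and 24.6% higher. Dpt was 63.1-fold lower in lung fibroblasts (-5.98 ± 0.12, adjusted p = 1.14e-16), Lum 24.9-fold lower (-4.64 ± 0.31), Omd 15.5-fold lower (-3.95 ± 0.53) and Aspn 13.1-fold lower (-3.71 ± 0.34). Prelp (-2.39 ± 0.12), Dcn (-2.14 ± 0.34), Fmod (-1.35 ± 0.25), Ogn (-1.11 ± 0.24) and Bgn (-0.84 ± 0.09) were lower by less. Podn was 7.39-fold higher in lung fibroblasts (2.89 ± 0.20, adjusted p = 4.78e-09). The groups did not overlap for any of the 10 genes, which held for 57.3% of all genes. The median log2 change was -2.27, beside 0.01 over all genes. Macrophage markers ran from 1123 to 1466 CPM in lung fibroblasts against 208 to 238 in heart fibroblasts, with 13 of 13 called higher in lung. Mesothelial markers ran from 299.8 to 326 against 52.7 to 71.1 CPM, with 9 of 9 called higher. Endothelial markers ran from 38.4 to 48.5 against 268 to 304 CPM, with 11 of 12 called lower and 0 higher. The part of such cells in the fibroblast values was not tested.

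Lung iECs were lower than heart iECs for 8 genes and higher for 1, where 18.9% of all genes were called lower and 18.9% higher. Lum (-4.09 ± 0.42), Fmod (-3.75 ± 0.40), Aspn (-3.54 ± 0.34), Prelp (-1.95 ± 0.12), Ogn (-1.71 ± 0.27) and Bgn (-1.13 ± 0.09) were lower in lung. Dpt had 3 counts against 739, a ratio of 212 with a counting interval of 72.2 to 1030, and Omd 3 against 74, a ratio of 21.2 (6.98 to 105). Without lung iEC 2 the Fmod change was -4.41, and without lung iEC 1 that of Omd was -5.21. Podn was 1.91-fold higher in lung iECs (0.93 ± 0.19, adjusted p = 0.000861). Dcn did not pass (-0.63 ± 0.33, adjusted p = 0.158) and did without lung iEC 3 (-1.12, adjusted p = 0.0103) or the 3 libraries together (-1.12, adjusted p = 0.000172). Lung ECs were lower than heart ECs for 10 of 10 genes and higher for 0, where 23.7% of all genes were called lower and 24.2% higher. Prelp was 91.4-fold lower (-6.51 ± 0.15, adjusted p = 4.24e-16) and Lum 27.9-fold lower (-4.80 ± 0.32). Fmod (-6.68 ± 0.45) had 5 counts in lung ECs against 466, a ratio of 99.5 with a counting interval of 42.3 to 308, and changed by -8.14 without lung EC 2. Omd had 8 counts against 68, a ratio of 9.07 (4.35 to 21.9), and changed by -4.11 without lung EC 1. Podn, the gene that was higher in lung fibroblasts and lung iECs, was 4.87-fold lower in lung ECs (-2.28 ± 0.29). Dpt had 3826 counts in heart ECs and 1 in lung ECs, a ratio of 4080 with a counting interval of 732 to 161000. The medians were -2.75 for iECs and -3.69 for ECs, beside -0.02 and 0.02 over all genes. Beside these organ values, macrophage markers ran from 9372 to 10449 CPM in lung ECs against 236 to 360 in heart ECs, and from 3100 to 4439 in lung iECs against 338 to 391 in heart iECs. Epithelial markers (8 genes) ran from 165 to 200 CPM in lung ECs against 8.06 to 15.8 in heart ECs. The part of these cells in the organ values was not tested.

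Whether the difference between iECs and fibroblasts was unlike in the 2 organs was tested as a difference of differences. Dcn was lower in iECs by less in lung than in heart, a difference of 1.51 ± 0.47 on the log2 scale (adjusted p = 0.0300). Fmod (-2.40 ± 0.49, adjusted p = 0.00134) and Dpt (-1.69 ± 0.45, adjusted p = 0.0249) were lower by more in lung. Podn fell in lung and stood at 0.20, not called, in heart, a difference of -1.96 ± 0.27 (adjusted p = 4.39e-05). These were 1 gene higher and 3 lower of 10, where 12.6% of all genes were called higher and 12.6% lower. The Dcn call was lost without lung iEC 3 (1.03, adjusted p = 0.0700), the library with the highest Dcn of its group, and also without heart fibroblast 1 or 3, heart iEC 1 or 3, or lung fibroblast 1 or 3. The Fmod difference was -3.06 without lung iEC 2. The Dpt call rests on 3 counts in lung iECs and was lost with DESeq2 (adjusted p = 0.100) and without any single lung iEC library. Lum (0.55 ± 0.59), Ogn (-0.61 ± 0.36), Omd (-0.40 ± 0.80), Aspn (0.17 ± 0.47), Bgn (-0.29 ± 0.13) and Prelp (0.44 ± 0.16, adjusted p = 0.0587) did not pass. Prelp passed with DESeq2 (0.46, adjusted p = 0.0214), RLE scaling (0.0462), no filter (0.0390) or the groups alone (0.0378), and without lung fibroblast 2, lung EC 2 or 3, lung iEC 3 or the 3 far libraries together (0.41, adjusted p = 0.0317). Bgn passed without lung fibroblast 1 (-0.35, adjusted p = 0.0246), lung iEC 1 (-0.39, adjusted p = 0.0265) or the 3 libraries together (-0.26, adjusted p = 0.0154).

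The same test was run on the difference between native ECs and fibroblasts. It was lower in lung for 6 of 10 genes and higher for 0, where 18.3% of all genes were called lower and 16.2% higher. These were Fmod (-5.34 ± 0.56), Podn (-5.17 ± 0.34), Prelp (-4.12 ± 0.17, adjusted p = 9.12e-12), Ogn (-2.60 ± 0.39), Bgn (-1.08 ± 0.13) and Dpt (-5.67 ± 0.43), the last resting on 1 count in lung ECs. Dcn (0.25 ± 0.46), Lum (-0.16 ± 0.40), Aspn (0.04 ± 0.50) and Omd (0.71 ± 0.93) did not pass. The difference between iECs and native ECs, which shares the EC libraries with it, was higher in lung for 6 genes and lower for 0, where 13.8% of all genes were called higher and 12.2% lower. Prelp (4.56 ± 0.18, adjusted p = 6.49e-12), Podn (3.21 ± 0.35), Fmod (2.93 ± 0.78), Ogn (2.0 ± 0.41), Bgn (0.79 ± 0.13) and Dpt (3.98 ± 1.0, adjusted p = 0.0240) made up the 6. Dpt rests on 3 counts against 1 in lung, and that call was lost without lung EC 2 or 3, any single lung iEC library or the 3 far libraries together (3.49, adjusted p = 0.0915). The Fmod call was lost without lung iEC 2 (2.28, adjusted p = 0.0942). Without lung EC 2 the Fmod differences were -6.79 for ECs against fibroblasts and 4.39 for iECs against ECs. Dcn (1.26 ± 0.47, adjusted p = 0.0635), Lum (0.72 ± 0.60), Aspn (0.13 ± 0.49) and Omd (-1.10 ± 1.04) did not pass. Dcn passed with DESeq2 (1.27, adjusted p = 0.0292) and without lung EC 2 (1.61, adjusted p = 0.0201), lung iEC 1 (1.44, adjusted p = 0.0485) or lung iEC 2 (1.47, adjusted p = 0.0370), and stood at 0.47 (adjusted p = 0.115) without the 3 far libraries together. Aspn passed without those 3 (1.02, adjusted p = 0.0236), where Podn was at -5.89 for ECs against fibroblasts and 3.86 for iECs against ECs.

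Across the 18 libraries, likeness was measured as the root mean square difference of log2 CPM after centring each gene on its own mean, as a description. A prior count of 2 was added before taking logs, which narrows differences at low counts such as those of Fmod and Omd in lung. The closest pair of members was Fmod and Prelp, the neighbours on chromosome 1, at 0.70 log2 units. Omd and Aspn, neighbours on chromosome 13, came next at 0.76, while Ogn, beyond Omd in the same row of genes, lay 1.5 from Omd and 1.69 from Aspn. Dcn and Lum on chromosome 10 were 1.65 apart, and the farthest pair was Podn and Dpt at 4.42. The printed windows of Prelp and Fmod share none of the 6 searched motifs. Of 13862 genes compared, the 3 nearest to Bgn were Tns2 (0.11), Slc43a3 (0.18) and Col16a1 (0.20), and the 3 nearest to Dcn were Ifi205 (0.63), Lbp (0.64) and Slfn5 (0.64). Nearest to Ogn were Aoc3 (0.44), Sfrp1 (0.46) and Col28a1 (0.55), and nearest to Aspn were Atoh8 (0.56), Naalad2 (0.58) and Gata4 (0.60). Prelp had Islr (0.63) and Sod3 (0.67) before Fmod, and Fmod had Islr (0.73) and Rarres2 (0.74) after Prelp. Lum lay nearest to Hsd11b1 (0.81), Omd to Hr (0.52), Podn to Mgp (0.99) and Dpt to Spon1 (1.49). Libraries of a group share their cells, so the 18 points are not independent.

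Other genes of the family and of its pathway were read from lists, whose counts stand beside the shares of all genes called that are given above. From here on, rose and fell mean called higher and called lower in the group named first. Of 9 other small leucine-rich proteoglycans, 6 were tested. Kera, the keratan sulfate proteoglycan next to Lum, had no count in any library. Tsku, a secreted member that modulates growth factor signals, rose in heart ECs against heart fibroblasts (1.37 ± 0.09) and fell in lung iECs against lung fibroblasts (-0.97 ± 0.09). Ecm2, the neighbour of Aspn, fell in heart iECs against heart fibroblasts (-2.52 ± 0.25), from 14.2 to 2.82 CPM. In all, 0 rose and 2 fell of 6 in heart iECs, and the same counts held in lung iECs. Of all genes tested, 26% rose and 24.6% fell in heart iECs against fibroblasts, and 25.9% and 24.7% in lung iECs.

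The enzymes that build the sugar chains were read in the same way. Of 22 chondroitin and dermatan sulfate enzymes, 5 rose and 5 fell in heart iECs against fibroblasts, where 26% of all genes rose and 24.6% fell. In lung iECs 6 rose and 8 fell, where 25.9% of all genes rose and 24.7% fell. Dse, the epimerase that turns chondroitin into dermatan sulfate, fell in heart iECs (-0.70 ± 0.06) and in lung iECs (-0.98 ± 0.07). Ust, a uronyl sulfotransferase, fell in heart iECs (-1.48 ± 0.12), and Chst7, a sulfotransferase, rose in lung iECs (2.15 ± 0.19) from a low level. Xylt1 went opposite ways, falling in heart iECs (-1.82 ± 0.23) and rising in lung iECs (1.65 ± 0.23). Of 6 tested enzymes of keratan sulfate, 1 rose and 3 fell in heart iECs, and 2 rose and 3 fell in lung iECs. The same shares of all genes stand beside these counts. B4galt1, a galactosyltransferase, fell in both (-0.91 ± 0.06 and -1.07 ± 0.06), and Chst2, a sulfotransferase, rose in both (1.09 ± 0.16 and 1.29 ± 0.16).

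Other proteoglycans moved both ways, with 8 higher and 7 lower of 20 tested in heart iECs and 7 higher and 8 lower in lung iECs. Of all genes, 26% were called higher and 24.6% lower in heart iECs, and 25.9% and 24.7% in lung iECs. These shares also stand beside the iEC counts that follow. Prg4, the lubricant of joints and serous surfaces, fell in heart (-5.42 ± 0.19) and lung (-6.94 ± 0.27), and Cspg4, known from pericytes, rose in heart iECs (4.22 ± 0.27). Of 18 collagens and ligands that these proteoglycans bind, 7 rose and 4 fell in heart iECs, and 3 rose and 11 fell in lung iECs. Col3a1, a fibrillar collagen chain, fell in both (-1.85 ± 0.18 and -3.39 ± 0.20), and Col12a1, a fibril-associated collagen, rose in heart iECs (1.49 ± 0.19). Of 13 receptors, 5 rose and 6 fell in heart iECs and 6 rose and 2 fell in lung iECs. Kdr, the VEGF receptor that decorin binds and that also marks endothelium, rose in heart (4.43 ± 0.14) and lung (5.03 ± 0.15). Of 11 tested proteases that cleave or mature these proteins, 2 rose and 7 fell in the iECs of each organ. Mmp3 fell in heart (-4.68 ± 0.40) and lung (-4.48 ± 0.40), Mmp2 fell in both (-2.60 ± 0.14 and -2.46 ± 0.14), and Mmp9 rose in lung iECs (5.09 ± 0.30). Between the fibroblasts of the organs, 12 of the 20 other proteoglycans were higher in lung and 6 lower. Of all genes, 24.6% were called higher there and 23.9% lower. Among the 20, Spock2 (3.64 ± 0.23) and Gpc3 (2.85 ± 0.30) were higher, and Gpc6 (-2.63 ± 0.26) was lower.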

How the data were processed

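Expected counts per gene, whole numbers in the deposited table, were the starting point; per the submitters' processing notes, Salmon, DESeq2 and mm10 were used, with roles, versions and settings not given in the sources used here. The labels name a column RNA kit and mRNA libraries. Of 35727 gene identifiers, 35422 matched a symbol of GENCODE M21; the 305 others held 0.0532% of counts. Levels are CPM, counts scaled to the library total, per kilobase of the union of exons where genes are compared. Genes were filtered by edgeR's filterByExpr on group, which left 14864, and were fitted in all 18 libraries with 1 coefficient per group by edgeR's quasi-likelihood test with TMM scaling (edgeR 4.0.16, R 4.3.3, 12 residual degrees of freedom). Benjamini-Hochberg adjusted p under 0.05 over all genes tested within a comparison was called. The genes and lists were chosen with earlier results of these data known. Genes of a list named with a log2 change were some, not all, of the called genes with the largest changes whose higher group reached 5 CPM. For each of the 10 genes, names came from the 3 nearest by log2 CPM. On data simulated for heart iECs against heart fibroblasts (13171 genes), 13 of 50 genes changed by 0.5 on the log2 scale were recovered and 50 of 50 changed by 1. The simulation gave every gene the same setting of spread and changed only genes above 5 CPM. It therefore does not show what would be recovered for genes with a wider spread or fewer counts, such as Dcn, Aspn and Omd. Alternatives were DESeq2 1.42.0, its size factors (RLE), other filters, the groups of a comparison alone, a replicate block, each library left out in turn and, chosen after seeing the data, 3 lung libraries left out together. Totals of 17747632 to 23775372 counts make a single count 0.0421 to 0.0563 CPM. Replicate libraries differed by more than counting noise (chi-square per degree of freedom 4.52 to 68.7), so none was treated as a copy.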

Additional observations from a re-analysis of the deposited data

Results flagged for a closer look

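The values listed here are differences between lung and heart in the same contrast, each with an adjusted p under 0.05 by edgeR's quasi-likelihood test, with n = 3 libraries a group in the fit across all genes. For iECs against fibroblasts, the lung value minus the heart value was 1.51 for Dcn, -2.40 for Fmod, -1.96 for Podn and -1.69 for Dpt on the log2 scale. For native ECs against fibroblasts it was -1.08 for Bgn, -5.34 for Fmod, -2.60 for Ogn, -4.12 for Prelp, -5.17 for Podn and -5.67 for Dpt. For iECs against native ECs it was 0.79 for Bgn, 2.93 for Fmod, 2.0 for Ogn, 4.56 for Prelp, 3.21 for Podn and 3.98 for Dpt. The 3 contrasts share libraries, so the values are not independent of each other. Dpt had 3 counts in lung iECs and 1 in lung ECs, and Fmod had 5, 9 and 1 counts in lung iECs and 1, 4 and 0 in lung ECs, so the sizes of their differences depend on how edgeR treats such counts.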

How the results depend on the processing

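Of 120 changes (10 genes in 12 comparisons), 91 were called, and 0 of these changed sign under any alternative run; 11 of the 29 not called changed sign under at least 1. The number that kept its side of the threshold was 116 with DESeq2, 119 with RLE scaling, 118 with no filter, 108 of 108 with a filter of 5 CPM in 3 libraries (Omd was then not tested), 112 of 115 with the groups of a comparison alone and 109 without the 3 lung libraries farthest from their group mates. With single libraries left out, 2120 of 2160 did. For the organ difference of iECs against fibroblasts, the count of genes called higher was 1, and 2 with DESeq2, with RLE scaling, with no filter, with the groups alone and without the 3 lung libraries, Prelp being added; with single libraries left out it ran from 0 to 2. Heart iECs against heart fibroblasts had 0 genes called higher and 1 (Podn) with the groups alone. Lung ECs against lung fibroblasts had 0 and 1 (Dcn) without the 3 lung libraries. The cause was not tested. With TMM effective library sizes the share of counts held by the 10 genes became 1.74% in heart fibroblasts, 0.996% in heart ECs and 0.232% in lung ECs. Counts in single figures, in Omd, Fmod and Dpt of lung, limit what depth can show.

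Replicate numbers are shared by the groups in the labels. Deviations of same-numbered libraries had a median correlation of 0.00563 (45 pairs, -0.398 to 0.117), and 4 of 18 libraries correlated best with their own number. A shared animal or culture need not leave a shared deviation, so whether the numbers mark pairs is not known. With a replicate block, 120 of 120 changes kept their side of the threshold.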
